A study of Mus musculus with 4 samples.

Results

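The red cell membrane skeleton genes described here are 8 genes, chosen by symbol: Sptb, Ank1, Slc4a1, Epb41, Epb42, Add2, Tmod1 and Dmtn. Each was found as 1 row of the deposited table through its Ensembl identifier on GRCm38, so 8 of 25509 gene rows are members, and all 8 passed the filter on low counts. Transcripts were measured in splenocytes, the cells of the spleen pressed into suspension, in 2 libraries from wild-type (WT) mice and 2 from mice labelled Trim21 KO, called knockout below. Trim21 encodes an E3 ubiquitin ligase that also binds antibody inside cells. All mice were 8 weeks old when shaved on the back, and both groups had been exposed to UVB, since every title carries UV. The labels give a dose of 100 mJ/cm2 for 1 or 3 weeks without saying which applied here. Unexposed mice were not analysed here, so the comparison is between genotypes under UVB. The sources used here give neither the allele, the strain nor any red cell lysis step.

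The red cell skeleton is a sheet of spectrin tetramers under the plasma membrane. Ankyrin ties spectrin to band 3, the anion exchanger that spans the membrane, and protein 4.2 steadies that link. At the ends of the spectrin tetramers, short actin filaments capped by tropomodulin are held together with protein 4.1, adducin and dematin. Loss of these proteins gives fragile red cells, as in hereditary spherocytosis and elliptocytosis. In mice the spleen is itself a site of red cell formation, and nucleated precursors there transcribe these genes, while mature red cells hold no nucleus.

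Library totals ran from 36173694 to 41924885 counts. Trim21 itself was still counted, at 1237 and 1912 reads in wild-type libraries 1 and 2 and 345 and 882 reads in knockout libraries 1 and 2. Without a description of the allele these counts do not check the genotype. No label ties a library to a mouse of its own. Libraries 1 of both genotypes held 4813 and 2768 counts of 4 Y-linked genes and 2 and 1 counts of Xist, and libraries 2 held 0 counts of the Y-linked genes and 43526 and 12419 of Xist. Library number thus went with a male or a female pattern in both genotypes, and the 2 libraries of a genotype were not repeats of 1 mouse. B and T cell markers were present throughout: 10 of 10 genes in each list were counted in every library, with sums of 2838 to 6688 and 568 to 1481 CPM.

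All 8 skeleton genes had higher levels in both knockout libraries than in both wild-type libraries. Levels are CPM, counts scaled to library size with edgeR's TMM factors, and a gene is said to have risen when the Benjamini-Hochberg adjusted p of edgeR's quasi-likelihood test over 13532 genes was under 0.05. By that test 3 of 8 rose, Dmtn, Add2 and Tmod1, 0 fell, and the other 5 did not pass. Of all tested genes 5.9% rose by this test, and 30.3% had both knockout libraries above both wild-type libraries. The median log2 fold change of the 8 genes was 3.10, against -0.06 over all tested genes. Of all counts, those of the 8 genes came to 0.0708% in wild-type library 1 (Wilson 95% interval 0.0699 to 0.0716) and 0.258% in library 2 (0.256 to 0.259). The knockout values were 0.646% (0.643 to 0.648) and 0.759% (0.756 to 0.762). In bulk samples like these, fewer cells of a type and less RNA per cell cannot be told apart.

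**Figure D1:**
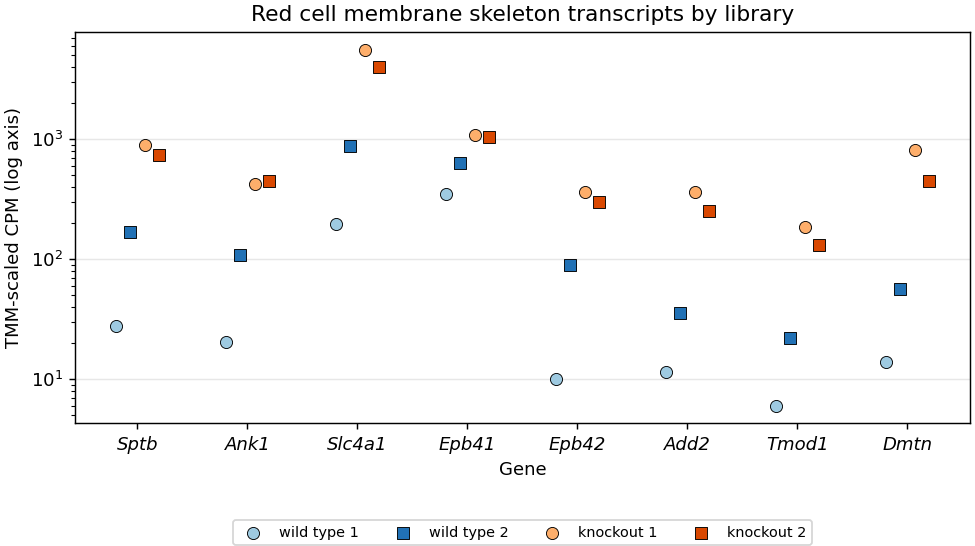
TMM-scaled CPM on a log axis (vertical) of the 8 skeleton genes (horizontal), with 1 point per library, circles for libraries 1 and squares for libraries 2. For every gene both knockout points lie above both wild-type points, and wild-type library 1 is the lowest of the 4.

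The number of skeleton genes that rose differed between fits. It was 6 without wild-type library 1 (where 16.4% of all genes rose), 7 without wild-type library 2 (10.8%), 6 without knockout library 1 (4.23%) and 7 without knockout library 2 (6.3%), with Dmtn, Add2 and Tmod1 among them in each case. In each such fit the lone library of a genotype takes its spread from the pair of the other. The lone library also has a male or a female pattern alone, where the other genotype has both. The number was 7 by DESeq2 (11.2% of all genes) and with library totals alone (5.78%), and 6 with no filter on low counts (7.36%).

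Promoter sequences are shown for the 5 of the 8 genes matched in RefSeq's table, so that the letters upstream of genes higher in both knockout libraries can be compared. The table, for GRCm38.p6, held 300-base windows, 250 bases before and 50 after a start site, for Sptb, Epb41, Epb42, Add2 and Tmod1. Each is written 5′ to 3′ on the gene's strand, and Epb41 has 3 listed starts, of which the most upstream is shown. Capitals mark letters that match, on either strand, AGATAA or TGATAA (read by GATA factors), or CCACACCC or CCNCNCCC (read by the erythroid factor Klf1 and its relatives), and overlapping matches run together.
Sptb (chr12:76710498-76710797, minus strand): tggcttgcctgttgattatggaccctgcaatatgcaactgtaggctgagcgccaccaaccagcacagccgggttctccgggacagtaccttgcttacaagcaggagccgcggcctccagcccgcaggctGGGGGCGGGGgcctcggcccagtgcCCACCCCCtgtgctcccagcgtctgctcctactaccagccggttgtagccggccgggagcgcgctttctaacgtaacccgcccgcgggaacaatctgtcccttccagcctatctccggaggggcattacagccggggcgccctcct
Epb41 (chr4:132075264-132075563, minus strand): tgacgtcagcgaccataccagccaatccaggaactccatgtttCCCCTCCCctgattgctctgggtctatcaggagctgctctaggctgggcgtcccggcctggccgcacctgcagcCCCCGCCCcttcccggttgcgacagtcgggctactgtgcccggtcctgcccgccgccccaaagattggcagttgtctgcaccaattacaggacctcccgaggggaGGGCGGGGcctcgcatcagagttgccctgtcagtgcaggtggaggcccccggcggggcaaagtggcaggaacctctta
Epb42 (chr2:121036828-121037127, minus strand): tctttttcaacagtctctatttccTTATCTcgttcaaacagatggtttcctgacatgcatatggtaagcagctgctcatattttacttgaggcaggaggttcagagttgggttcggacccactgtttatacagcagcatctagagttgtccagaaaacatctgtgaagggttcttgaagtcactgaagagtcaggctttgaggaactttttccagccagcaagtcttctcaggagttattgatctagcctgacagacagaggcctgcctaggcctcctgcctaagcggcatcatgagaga
Add2 (chr6:86028431-86028730, plus strand): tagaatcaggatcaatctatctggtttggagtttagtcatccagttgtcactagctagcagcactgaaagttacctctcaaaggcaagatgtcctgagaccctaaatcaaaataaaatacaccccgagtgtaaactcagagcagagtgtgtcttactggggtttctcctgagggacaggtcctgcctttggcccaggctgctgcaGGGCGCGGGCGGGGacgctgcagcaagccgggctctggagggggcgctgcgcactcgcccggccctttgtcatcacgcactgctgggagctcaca
Tmod1 (chr4:46038972-46039271, plus strand): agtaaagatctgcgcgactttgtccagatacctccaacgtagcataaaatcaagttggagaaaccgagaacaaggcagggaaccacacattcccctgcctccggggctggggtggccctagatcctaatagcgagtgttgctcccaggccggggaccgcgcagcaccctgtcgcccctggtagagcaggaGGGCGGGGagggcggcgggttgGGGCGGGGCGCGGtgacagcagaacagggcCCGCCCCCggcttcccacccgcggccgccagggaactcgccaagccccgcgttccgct

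AGATAA occurred once among these 5 windows, in Epb42 at position -226 from the start site on the opposite strand, and TGATAA and CCACACCC in 0 of them. CCNCNCCC occurred 3 times in Sptb, 3 times in the Epb41 window shown, 2 times in Add2 and 4 times in Tmod1, and 0 times in Epb42. Of all 32851 windows in the table, 11.2% held AGATAA, 9.05% TGATAA, 3.56% CCACACCC and 49.5% CCNCNCCC on either strand. CANNTG, the E-box letters, lay in 72.3% of all windows, and in 4 of the 5 shown, Tmod1 being without it. These are matches of letters in a window and do not say where a factor binds.

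Sptb encodes erythroid beta spectrin, a main component of the sheet (ENSMUSG00000021061, GRCm38 chromosome 12, 76580488 to 76710547, minus strand). Its level was 27.9 and 169 CPM in wild-type libraries 1 and 2, and 896 and 737 CPM in knockout libraries 1 and 2. The wild-type libraries thus differed 6.04-fold between themselves, the knockout libraries 1.22-fold. Sptb did not pass, with a log2 fold change of 3.05 ± 0.83 (SE), a lower 95% bound of 1.10 and an adjusted p of 0.074. Between libraries 1 the knockout was 32.1-fold above wild type, and between libraries 2 it was 4.37-fold above.

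Ank1 encodes the erythroid ankyrin that holds spectrin to band 3 (ENSMUSG00000031543, chromosome 8, 22974844 to 23150497, plus strand). It stood at 20.2 and 108 CPM in wild type and at 420 and 449 CPM in knockout. The knockout libraries were close to each other, and the wild-type libraries lay 5.35-fold apart. The log2 fold change of 2.76 ± 0.76 had an adjusted p of 0.076. Mir486, which lies inside Ank1, was not analysed here. An antisense gene, Gm15816, shares 862 exonic bases with Ank1 and was not analysed here either.

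Slc4a1 encodes band 3, the chloride and bicarbonate exchanger of red cells (ENSMUSG00000006574, chromosome 11, 102348824 to 102366203, minus strand). Its level was 196 and 884 CPM in wild type, and 5525 and 4022 CPM in knockout. Per kb of exonic sequence it was the most abundant of the 8 genes in every library, from 40.1 CPM per kb in wild-type library 1 to 1130 in knockout library 1. Slc4a1 did not pass either (log2 fold change 3.14 ± 0.85, adjusted p 0.074). Epb42 encodes protein 4.2, a transglutaminase relative without enzyme activity (ENSMUSG00000023216, chromosome 2, 121017891 to 121037072, minus strand). It had 9.96 and 89.1 CPM in wild type and 361 and 297 CPM in knockout. Among the 8 genes Epb42 had the widest gap between wild-type libraries, 8.95-fold. Its log2 fold change of 2.73 ± 0.90 had an adjusted p of 0.11.

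The genes of the junctional complex held both ends of the range. Dmtn encodes dematin, an actin-bundling protein (ENSMUSG00000022099, chromosome 14, 70601263 to 70636048, minus strand). It rose from 13.9 and 55.9 CPM in wild type to 807 and 445 CPM in knockout. The lower knockout library was still 7.96 times the higher wild-type library. Its log2 fold change of 4.16 ± 0.78 (adjusted p 0.024) was the highest of the 8, although its interval, 2.35 to 5.98, overlapped those of the other 7 genes.

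Add2 encodes beta adducin, which caps actin and recruits spectrin to it (ENSMUSG00000030000, chromosome 6, 86028681 to 86124409, plus strand). It rose from 11.4 and 35.4 CPM to 360 and 253 CPM. The adjusted p of 0.018 was the lowest of the 8, at a log2 fold change of 3.71 ± 0.63. An antisense gene, Gm44089, shares 356 exonic bases with it and was not analysed here. Tmod1 encodes tropomodulin 1, which caps the slow-growing end of actin filaments (ENSMUSG00000028328, chromosome 4, 46038935 to 46116032, plus strand). Tmod1 was the lowest of the 8 by CPM, with 6.005 and 22.0 in wild type, and rose to 185 and 130 CPM in knockout. That is a log2 fold change of 3.49 ± 0.66 (adjusted p 0.026).

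Tmod1 has a limit of its own in counting. Its exons share 1287 bases with Tstd2 on the opposite strand. Of the 75-base windows of its longest coding transcript, 39.3% occur in transcripts of other genes. Matches on the opposite strand were counted too. Tstd2 had 769 and 1302 reads in the wild-type libraries and 162 and 676 in the knockout libraries. It was thus lower in knockout, where Tmod1 was higher, while within wild type both genes were higher in library 2. Without a stated strand setting of the counting, reads of the shared stretch cannot be assigned with certainty. The same share was 2.58% for Add2 and 1.44% for Ank1, matched by the antisense genes Gm44089 and Gm15816 alone. It was 0% for the other 5 genes.

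Epb41 encodes protein 4.1R, which fastens spectrin to actin and is made in many cell types (ENSMUSG00000028906, chromosome 4, 131923413 to 132075321, minus strand). It had 346 and 631 CPM in wild type, and 1092 and 1034 CPM in knockout. The groups did not overlap, and the wild-type libraries differed 1.83-fold, the narrowest such gap of the 8. Its log2 fold change of 1.12 ± 0.53 had a 95% interval of -0.11 to 2.36 and an adjusted p of 0.21. In wild-type libraries 1 and 2 its log2 level lay 4.15 and 2.75 above the mean of the other 7 genes, and in knockout 0.79 and 1.11 above. The 2 groups of that difference do not overlap, but 2 libraries against 2 cannot give an exact two-sided permutation p below 0.333.

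**Figure D2:**
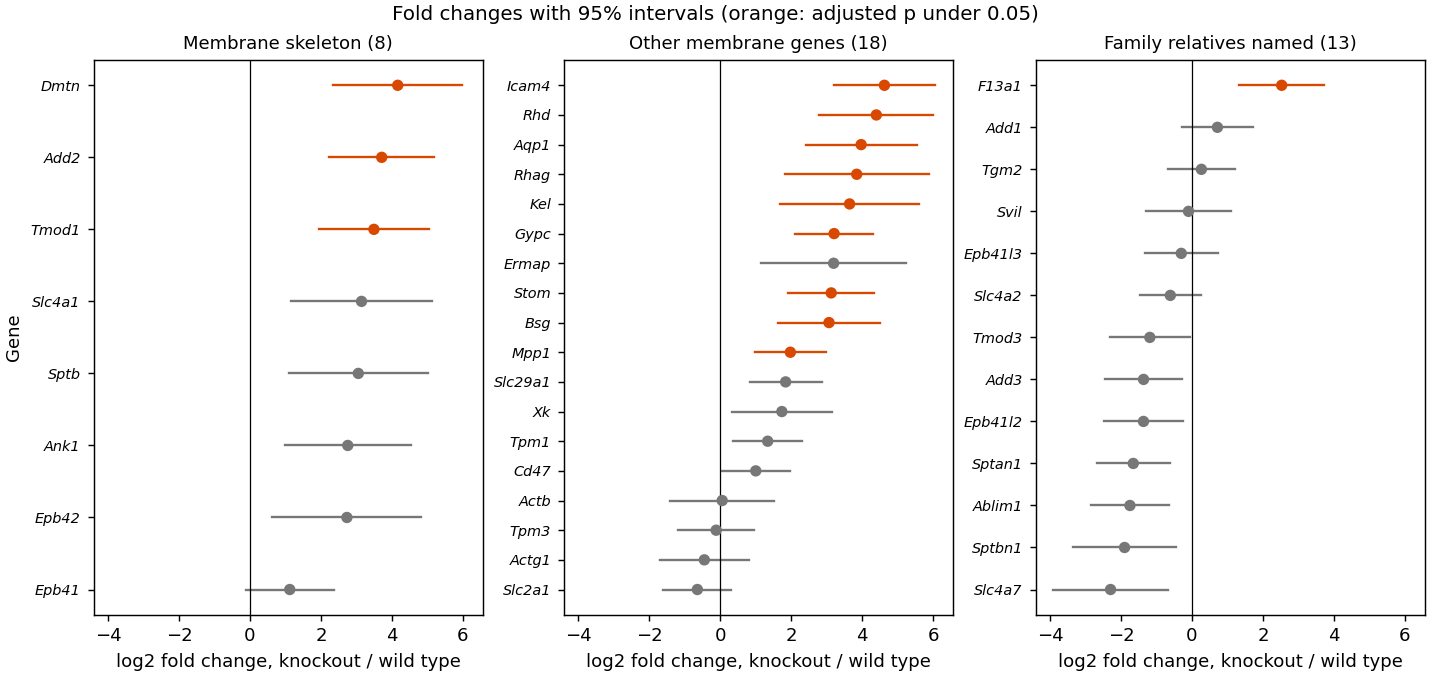
Log2 fold change of knockout over wild type (horizontal) with 95% intervals (lines) for the 8 skeleton genes, 18 other red cell membrane genes and 13 relatives of the skeleton genes, with genes that passed in orange. Dmtn, Add2 and Tmod1 are the orange skeleton genes, and Epb41, at 1.12, is the lowest of the 8.

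The make-up of the 8 transcripts, compared per kb of exonic sequence, showed the same contrast. Epb41 made up 30.3% and 14.5% of the summed CPM per kb in wild-type libraries 1 and 2, and 4.46% and 5.70% in knockout. Slc4a1 made up 56.1% and 66.1% in wild type and 73.6% and 72.2% in the knockout pair. Dmtn went from 1.99% and 2.09% to 5.36% and 3.99%, and Add2 from 1.57% and 1.28% to 2.32% and 2.19%. For these 4 genes the shares of the genotypes did not overlap. Tmod1 also did not overlap, with 2.13% and 2.04% against 3.06% and 2.89%. Shares of Sptb (3.22% and 5.08% against 4.81% and 5.32%), Ank1 (2.10% and 2.93% against 2.02% and 2.92%) and Epb42 (2.57% and 6.01% against 4.34% and 4.82%) overlapped between genotypes. Shares sum to a whole, so a higher share of 1 gene lowers the others. Non-overlap of 2 libraries against 2 gives an exact two-sided permutation p of 0.333 at best, so it describes these libraries only.

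**Figure D3:**
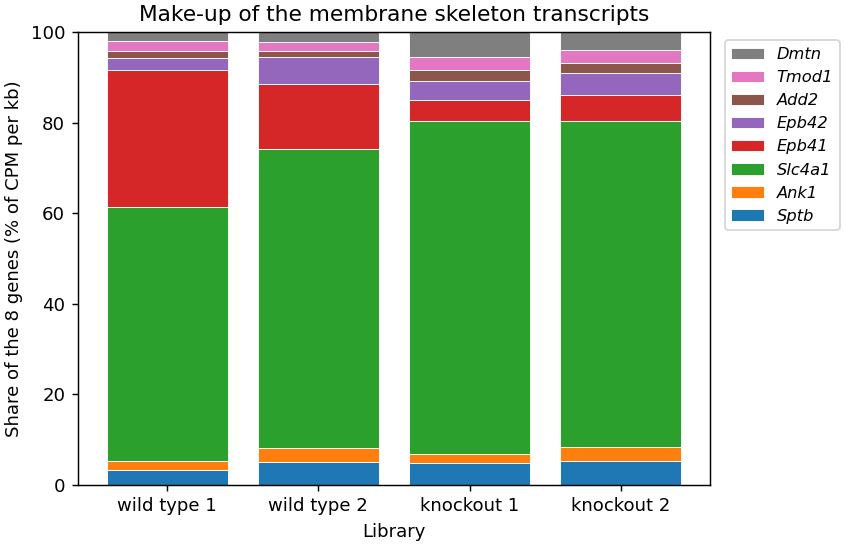
Share of each skeleton gene in the summed CPM per kb of the 8 genes (vertical, percent) in each library (horizontal). The Epb41 band narrows from 30.3% and 14.5% in wild type to 4.46% and 5.70% in knockout, and the Slc4a1 band is the widest in all 4 libraries.

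In order of mean CPM per kb, wild type ran Slc4a1 (110), Epb41 (30.6), Epb42 (9.14), Sptb (8.10), Ank1 (4.76), Dmtn (3.56), Tmod1 (3.55) and Add2 (2.31). Slc4a1 (40.1 to 181), Epb41 (21.7 to 39.6) and Epb42 (1.84 to 16.4) did not overlap one another, and all later neighbours in that order did. In knockout the order was Slc4a1 (976), Sptb (67.2), Epb41 (66.7), Dmtn (63.9), Epb42 (60.7), Tmod1 (40.0), Ank1 (32.1) and Add2 (30.3). There Slc4a1 stood apart at 822 to 1130 CPM per kb, the ranges of Epb42 and Tmod1 did not overlap either, and the other neighbours overlapped. In both genotypes band 3 transcripts thus exceeded those of spectrin, ankyrin and protein 4.2. Per kb, Slc4a1 over Sptb came to 17.4 and 13.02 in the wild-type libraries and 15.3 and 13.6 in the knockout libraries. Sptb itself spanned a 32.1-fold range. Exonic length merges all exons of a gene, and it exceeds the longest coding transcript unequally. It was 15942 against 8302 bases for Epb41, 9804 against 5418 for Dmtn and 12147 against 10394 for Sptb. Order, shares and ratios per kb thus depend on the length used.

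The genes that these skeleton proteins bind or share the membrane with were described from a list of 18. In the knockout 9 of 18 rose and 0 fell, where 5.9% of all tested genes rose and 0.392% fell. The list's median log2 fold change was 2.52. Ermap, which encodes the erythroblast membrane-associated protein, had the widest gap between wild-type libraries in this list, at 13.9 and 103 CPM against 540 and 534 CPM in knockout. Gypc, which encodes the membrane anchor of protein 4.1, rose from 28.2 and 44.0 CPM to 403 and 264 CPM (3.21 ± 0.47, adjusted p 0.014). Mpp1, which encodes p55 of the same junction, rose by a log2 fold change of 1.98, and this call was lost without knockout library 1 (adjusted p 0.35) and with library totals alone (0.080).

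Among genes of blood group proteins and their partners, 4 that rose were Rhd, Rhag, Kel and Icam4, and Ermap and Xk did not pass. The log2 fold changes were 4.40 for Rhd, 3.84 for the ammonium channel Rhag, 3.64 for Kel and 4.62 for the adhesion molecule Icam4. The Rhag and Kel calls were lost with DESeq2 size factors (adjusted p 0.056 and 0.057). Other genes that rose were Aqp1, the water channel (3.97), Stom, which encodes stomatin (3.13), and Bsg, which encodes basigin (3.07). The Bsg call was lost without knockout library 1 (adjusted p 0.092). Ermap (3.19), Slc29a1 (1.84), Xk (1.74), Tpm1 (1.34) and Cd47 (157 and 204 against 388 and 336 CPM) did not pass, with adjusted p of 0.052 to 0.17. The lowest values of the list were Actb 0.06, Tpm3 -0.11, Actg1 -0.45 and the glucose transporter Slc2a1 -0.64, with adjusted p of 0.33 to 0.96. Actb had a negative value under 4 of the alternatives, scaling by library totals alone among them.

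Relatives of the skeleton genes that other cells use mostly had lower values in the knockout. Among those tested 24 had negative log2 fold changes, as did 7055 of all 13532 tested genes. Of 38 listed, 29 passed the filter on low counts. Of those 29, 1 rose, 0 fell and the median log2 fold change was -1.19. Among all tested genes 5.9% rose and 0.392% fell. The relatives' median exonic length was 9563 bases, and tested genes above 8000 bases had a median log2 fold change of -0.67. With each library's trend on length taken out, the median was -0.92 for the relatives and -0.15 for all genes. The 1 that rose was F13a1 (2.53 ± 0.51, adjusted p 0.031), a transglutaminase made by monocytes, macrophages and megakaryocytes, with 12.9 and 6.36 CPM in wild type and 41.7 and 69.5 CPM in knockout. Its call was lost without knockout library 2 (adjusted p 0.057). Sptbn1, the beta spectrin of nucleated cells, had 132 and 388 CPM in wild type and 44.6 and 95.1 CPM in knockout, and its partner Sptan1 188 and 297 CPM against 62.0 and 92.3 CPM. Their log2 fold changes of -1.90 and -1.65 did not pass (adjusted p 0.11 and 0.070).

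The other named relatives also missed the threshold. Ablim1, which shares the headpiece domain of dematin, was at -1.75, the bicarbonate transporter Slc4a7 at -2.29, Epb41l2 at -1.36, Add3 at -1.36, Tmod3 at -1.19 and Slc4a2 at -0.61. Those 6 genes had both knockout libraries below both wild-type libraries, as 30.1% of all tested genes did. Add1, the alpha adducin that pairs with Add2, was at 0.72, Tgm2 at 0.27, Svil at -0.10 and Epb41l3 at -0.30. The count of relatives that fell was 10 without wild-type library 1 (14.6% of all genes fell), 3 without wild-type library 2 (4.24%), 0 without knockout library 1 (0.211%) and 1 without knockout library 2 (1.61%).

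In the 3 families compared here, the erythroid member took a larger part in the knockout. Per kb, Sptb over Sptbn1 was 0.30 and 0.63 in wild-type libraries 1 and 2, and 28.9 and 11.2 in the knockout pair. The ratio of Tmod1 to Tmod3 went from 0.17 and 0.27 to 8.26 and 4.48. Add2 to Add1 went from 0.037 and 0.096 to 0.61 and 0.48. Each of these ratios is taken within a library, so scaling between libraries does not enter. Differences between libraries by gene length were not taken out of them. Exonic bases were 12147 for Sptb against 17492 for Sptbn1, 3946 for Tmod1 against 11151 for Tmod3, and 10139 for Add2 against 8561 for Add1. In wild type the widely used gene was the more abundant one in all 3 pairs, and in knockout this held for the adducins alone. Other families differed from these pairs already in wild type. Per kb, Slc4a1 (40.1 and 181) lay above Slc4a2 (5.27 and 4.26) there, and Epb41 (21.7 and 39.6) above Epb41l2 (4.89 and 10.5).

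Between the wild-type libraries summed haemoglobin differed in the opposite direction from the skeleton genes, and Gata1 in the same direction but less. Summed haemoglobin genes were at 73569 and 31170 CPM in wild-type libraries 1 and 2, so library 1 was the higher. Hbb-bs, Hbb-bt, Hba-a1 and Hba-a2 have 667 to 812 exonic bases. Tested genes of up to 1000 bases had a median log2 difference, wild-type library 1 minus 2, of 0.96, and genes above 8000 bases -0.86. The part of length in the haemoglobin contrast was not tested. All 8 skeleton genes were lower in wild-type library 1. Lower there too were 9 of 15 erythroid markers, among them Car2, a carbonic anhydrase of red cells, at 107 against 283 CPM. So were 12 of 18 other membrane genes, among them Rhag at 3.97 against 28.3 CPM. The same held for 8 of 10 erythroid factors, a list that shares Gata1, Klf1 and Epor with the markers. Over all genes with a length, 6726 of 13499 were lower there. For each 1000 haemoglobin counts the 8 genes came to 8.58 and 64.0 in wild type against 21.1 and 51.0, so the genotypes overlapped on this scale. Gata1, a master factor of red cell formation, was at 11.3 and 15.6 CPM in wild type, nearer to each other than any skeleton gene. The ratio of Slc4a1 to Gata1 CPM was 17.4 and 56.7 in wild type and 16.4 and 20.4 in the knockout pair, and that of Sptb to Gata1 was 2.48 and 10.8 against 2.65 and 3.74. Epb41 to Gata1 was 30.6 and 40.5 against 3.23 and 5.26, which did not overlap.

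**Figure D4:**
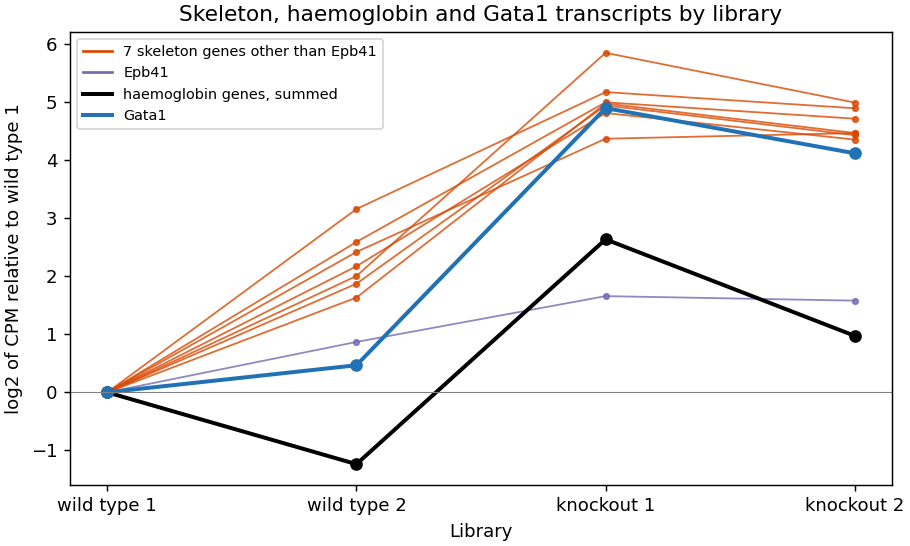
Log2 of CPM relative to wild-type library 1 (vertical) in the 4 libraries (horizontal) for the 8 skeleton genes, summed haemoglobin genes and Gata1, with lines that only join the points of a gene. From wild-type library 1 to 2 the skeleton genes go up while haemoglobin goes down, from 73569 to 31170 CPM.

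Factors that act on erythroid genes were taken from a list of 10, of which 7 rose and 0 fell. Among all tested genes 5.9% rose and 0.392% fell. Gata1 rose by 4.31 ± 0.49, Klf1 by 4.58 ± 0.61, the erythropoietin receptor Epor by 4.30 ± 0.52 and Gfi1b by 4.07 ± 0.51 on the log2 scale (adjusted p 0.011 to 0.012). Tal1 (3.78), Nfe2 (3.59) and the Gata1 partner Zfpm1 (2.53) rose as well, the last not without knockout library 1 (adjusted p 0.068). Lmo2 (1.56, adjusted p 0.067), Ldb1 (0.21) and Bcl11a (-0.67) did not pass. Tal1 was the factor with the widest gap between wild-type libraries, 10.3 against 39.1 CPM.

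The genes closest to the mean profile of the 8 were Tom1l1, Prc1, Tfrc, March8 and Spire1, among 8870 candidates with an average log2 CPM of at least 3. Closeness was the Euclidean distance between log2 CPM values centred on each gene's mean over 4 libraries, and it was 0.077 for Tom1l1 and 0.25 for Spire1. With 4 points from the same libraries this is a description only. Tfrc, the transferrin receptor, had 32.9 and 140 CPM in wild type and 698 and 534 CPM in knockout. Tom1l1 had 2.69 and 10.9 CPM against 62.6 and 48.4 CPM.

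Gene length went with the gap between libraries of a genotype, and 7 of the 8 skeleton genes are longer than the median tested gene of 4280 exonic bases, running from 3946 (Tmod1) to 15942 bases (Epb41). Over tested genes of up to 1000 exonic bases the median log2 difference of wild-type library 1 minus library 2 was 0.96, and over genes above 8000 bases it was -0.86. In knockout the same medians were 0.64 and -0.42. The skeleton genes were at -0.87 (Epb41) to -3.15 (Epb42) in wild type, all below the median of the longest genes, with Epb41 nearly at it. In knockout 7 of 8 were higher in library 1, with Ank1 at -0.10, while the medians of all genes were -0.15 at 4000 to 8000 bases and -0.42 above that. Tmod1, in the class of 2000 to 4000 bases with a knockout median of 0.15, was at 0.51. Median log2 fold changes of knockout over wild type were lower in longer genes too, from 0.74 in the shortest class to -0.67 in the longest. When each library's trend on length was taken out, an alternative added after the data were seen, 8 of 8 skeleton genes rose, with log2 fold changes of 1.89 (Epb41) to 4.80 (Dmtn) and adjusted p of 0.0034 to 0.047, where 9.51% of all genes rose.

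**Figure D5:**
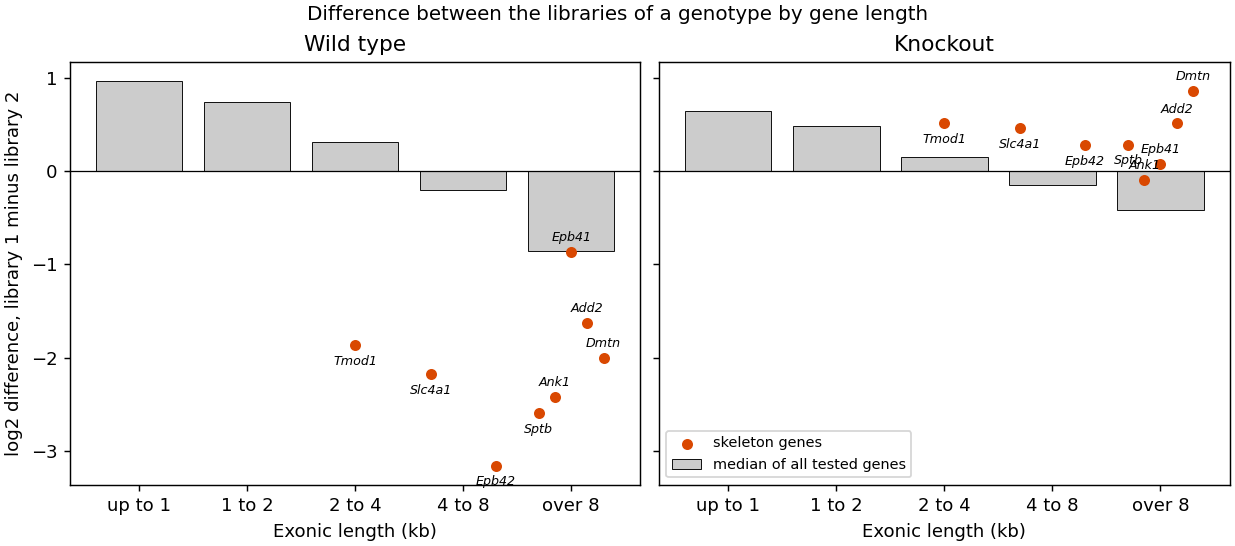
Log2 difference between library 1 and library 2 of a genotype (vertical) by exonic length in kb (horizontal), with bars for the median of all tested genes and points for the skeleton genes. Bars fall from 0.96 to -0.86 in wild type and from 0.64 to -0.42 in knockout, and the skeleton genes lie at or below the bars in wild type and above them in knockout.

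Neutrophil genes were the list of other cells in which most members passed. Of 15 erythroid markers 15 were higher and 7 rose, with sums of 33237 to 75678 CPM in wild type and 153108 to 473355 CPM in knockout, mostly haemoglobin. Of 13 neutrophil genes 12 rose, with sums of 437 to 1023 CPM against 28017 to 29901 CPM. All 10 B cell and 10 T cell genes had negative log2 fold changes, and 0 passed. Of all 13532 tested genes 7055 had negative values, 5.9% rose and 0.392% fell. Red pulp macrophage markers had sums of 991 to 1262 against 1488 to 1899 CPM, and 0 of 10 passed. Of the 12 megakaryocyte and platelet genes 1, Gp9, rose, with sums of 62.3 to 77.2 against 68.8 to 85.5 CPM.

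Ank1, Add2 and Tmod1 are also transcribed in muscle or neurons. The 8 muscle genes summed to 8.85 to 10.7 CPM in wild type and 19.2 to 38.0 CPM in knockout, of which Mylpf rose, and Myh1 and Myh4 were at 0 counts in all 4 libraries. The 8 neuron genes summed to 2.30 to 3.51 against 1.63 to 1.81 CPM, with Snap25, Syt1, Nefl and Gap43 at 0 in all 4. The part of any of these cell types in the skeleton genes' differences was not tested.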

How the data were processed

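RNA of splenocytes was depleted of ribosomal RNA and sequenced as stranded, 75 bp single-end libraries, per the labels' protocols. The authors deposited 1 table of expected counts per Ensembl gene, as RSEM estimates them, with 1 column for each of 4 libraries. Per the submitters' processing notes the tools were RSEM 1.2.25, STAR 2.5.0 and SAMtools 1.18 on GRCm38, with no role or order, and RSEM is the only quantifier among them. The sources used here give no annotation release or strand setting. All values were whole numbers, so the rounding applied before testing changed 0 of them. The 92 spike-in rows held 0 counts and were left out. Library totals ran from 36173694 to 41924885 counts. Wilson intervals cover counting error only: no molecular identifiers were used, so reads are not independent molecules.

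Of 25509 gene rows, 25251 were matched by identifier to GENCODE M21, which gave symbols, positions and exonic length (all exons of a gene merged). Groups and library numbers came from the titles. Counts were fitted with edgeR 4.0.16 in R 4.3.3 (TMM scaling, filterByExpr, robust quasi-likelihood F test, Benjamini-Hochberg adjustment over 13532 genes, 2 residual degrees of freedom), and the script was checked on simulated counts. Every adjusted p comes from this edgeR test unless DESeq2 is named. Fold changes are given as knockout over wild type, ± SE, and 95% intervals use the fit's own degrees of freedom. Log2 differences between single libraries use a pseudocount of 0.05 CPM. The members, lists and naming rule were chosen with earlier results of these data known. The rule named all 8 members, list genes that passed, those that did not with a mean of at least 10 CPM (up to 12 a list), all erythroid factors tested and the 5 genes of closest profile. Of the other membrane genes 2 are not reported here, and the list's counts leave them out. Genes named beside these (markers, Tstd2, antisense genes) were chosen after their values were seen. Alternatives were DESeq2 1.42.0, its size factors, library totals alone, no haemoglobin genes, no low-count filter, a block for the library number, leaving out each library and, added later, a length offset (loess, span 0.5).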

Additional observations from a re-analysis of the deposited data

How the results depend on the processing

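All 8 skeleton genes had positive log2 fold changes under each of the 11 alternatives run, and Dmtn, Add2 and Tmod1 passed in all of them. Over these, the log2 fold change ranged from 3.47 to 5.49 for Dmtn, 3.10 to 4.75 for Add2, 2.83 to 4.72 for Tmod1, 2.42 to 4.61 for Slc4a1, 2.26 to 4.87 for Sptb, 1.99 to 4.43 for Ank1, 1.87 to 5.05 for Epb42 and 0.58 to 1.89 for Epb41. Their adjusted p ranged up to 0.023 to 0.033 for the first 3, to 0.11 for Slc4a1, 0.084 for Sptb, 0.086 for Ank1, 0.12 for Epb42 and 0.83 for Epb41. Epb41 passed in 2 of 11 alternatives, the replicate block and the length offset.

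The number of skeleton genes that passed, 3 of 8, was 7 by DESeq2 and with library totals alone, 6 with no low-count filter and 8 with the length offset. It ranged from 6 to 7 with 1 library left out. Relatives that passed, 1 of 29, numbered 11 with library totals alone (10 fell), 6 with no filter (of 38, 5 fell), 9 by DESeq2 (8 fell) and 3 with the length offset (2 fell), and 1 to 11 with 1 library left out (0 to 10 fell). Of all genes 851 passed, 798 higher and 53 lower. The total was 2158 with library totals alone (782 and 1376), 1768 with no filter, 2472 by DESeq2, 2042 with the length offset, and 631 to 4347 with 1 library left out. The share of all genes that fell was 10.2% with library totals alone, 2.82% with no filter, 6.48% by DESeq2 and 5.62% with the length offset. With library totals alone the median over all genes went from -0.06 to -0.56 on the log2 scale. The cause of these changes was not tested, except that the fit with no filter also tests more genes.

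With the library number as a replicate block, 8 skeleton genes, 14 other membrane genes (9 without the block), 11 relatives (10 fell) and 5705 genes in all passed. Of all 13532 genes tested in that fit, 22.4% rose and 19.7% fell. Among the skeleton genes the adjusted p was 0.0015 for Epb41 and 6.3e-19 for Sptb. Deviations of same-numbered libraries correlated over genes (r = 0.51), and the number went with the male or female pattern in both genotypes, so the block is also a block for sex. The labels do not pair the samples, and there are only 2 numbers.

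Reversed values were seen for 5 genes that did not pass in any of the settings concerned. Actb was at -0.45 with library totals alone and -0.29 with the length offset, and lay between -0.28 and 0.48 with 1 library left out, negative without wild-type library 2 and without knockout library 1 (-0.06). Svil was at 0.37 with the length offset and from -0.68 to 0.49 with 1 library left out, positive without wild-type library 2 and without knockout library 1 (0.32). Epb41l3 was at 0.25 with the length offset and from -0.66 to 0.17 with 1 left out, positive without wild-type library 2. Tgm2 was at -0.25 with library totals alone and from -0.015 to 0.61 with 1 left out, negative without wild-type library 2. Ldb1 was at -0.33 with library totals alone and from -0.040 to 0.44 with 1 left out, negative without knockout library 1.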
